A study of Mus musculus with 8 samples.

Results

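The response of miR-155 knockout dendritic cells to lipopolysaccharide (LPS), the outer-membrane component of Gram-negative bacteria, was measured on 4 of the 8 arrays of the study. The 2 arrays titled as LPS-stimulated knockout cells were compared with the 2 arrays titled as unstimulated knockout cells. A gene was kept where the scanner marked a probe as well above background on each of the 2 arrays of at least 1 knockout group, which held for 15232 of the 15401 genes tested in all 4 groups of the study. Of these, 13364 genes were well above background in both knockout groups, 1051 passed through the LPS arrays alone and 817 through the unstimulated arrays alone.

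The knockout cells came from male mice of strain C57BL/6Jax with miR-155 knocked out, and the wild-type (WT) cells from male mice of the same strain. Total bone marrow was grown for 7 days with 40 ng/mL GM-CSF, the growth factor that drives dendritic cell formation in culture, in every group. LPS was given at 100 ng/mL for 16 h. Dendritic cells were then sorted by flow cytometry: CD86-negative cells from the cultures without LPS, and adherent, CD86-positive cells from the cultures with LPS. The LPS comparison is therefore also a comparison of those sort gates, and the contribution of each cannot be told apart. The mouse's age, and whether the replicates came from separate animals or cultures, were not given in the sources used here, so p-values measure only the spread between these arrays, which may be technical. Total RNA from a sorted population was measured, so fewer cells of a type and less RNA per cell cannot be told apart.

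LPS is recognised on myeloid cells by CD14, MD-2 (Ly96) and Toll-like receptor 4, which signal through the adaptors MyD88 and TRIF to NF-kB and interferon regulatory factors. NF-kB turns on cytokine, chemokine and co-stimulatory genes, while interferon beta made through TRIF acts back on the cell through its receptor to turn on the interferon-stimulated genes. A maturing dendritic cell stops dividing, takes up less antigen, changes its chemokine receptors and shows more co-stimulatory protein on its surface. MiR-155 is a microRNA that LPS induces in wild-type myeloid cells, and it represses messenger RNAs that carry matches to its seed, the stretch at bases 2 to 8. The missing molecule is shown here with the seed in capitals, as RefSeq gives it for GRCm38.p6 (chr16:84714143-84714165, plus strand).
mmu-miR-155-5p: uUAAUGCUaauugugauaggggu
No probe on the array was named for the miR-155 host transcript, so the knockout itself was not checked by its own RNA.

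Values are log2 of the scanner's processed signal minus the 75th percentile of the same array, so 0 is the level of a probe at that percentile and 1 unit is a 2-fold difference. On the 4 knockout arrays, 54.9% to 58.3% of spots were well above background and no spot was saturated. The correlation between the 2 arrays of a knockout group over all tested genes was 0.9724 for LPS and 0.9733 for unstimulated cells. Both LPS arrays and 1 unstimulated array were on the same slide, and unstimulated replicate 2 was on the other slide. The dendritic cell markers Itgax and Cd74 were present before and after LPS. Of 14 listed dendritic cell markers above background in both groups, 1 was higher and 3 lower with LPS. Itgax (CD11c, the integrin that marks dendritic cells) read 7.31 and 6.89 on the LPS arrays and 7.92 and 6.94 on the unstimulated arrays. Cd74, the class II invariant chain, read 8.63 and 8.89 with LPS and 8.38 and 8.90 without. Cd86, used for the sort, read 4.33 and 3.52 with LPS and -0.45 and 0.54 without, and its groups did not overlap. Since the gate used CD86 protein, its change (log2 3.88 ± 0.55, SE) is a check of the labels and no finding.

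In limma's moderated test over the 15401 genes, 1595 genes (10.4% of those tested) were higher and 1613 (10.5%) lower with LPS at a Benjamini-Hochberg adjusted p under 0.05. Among the genes above background in both knockout groups, 1084 of 13364 were higher and 1227 lower. The median change over all tested genes was 0.05 on the log2 scale. The number of calls rested on each single array: 1420 genes passed without unstimulated replicate 2, 2232 without unstimulated replicate 1, 1785 without LPS replicate 2 and 1813 without LPS replicate 1. With slide as a block 2351 genes passed, and on slide 2 alone, which holds 1 unstimulated knockout array, 441 passed. Of the genes that passed, 49.7% were higher; with normexp background correction 930 passed, of which 61.8% were higher. The median over all genes was 0.16 with normexp and -0.06 with quantile normalization.

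Gene lists are described by the count of their members that passed this test, over the members above background in both knockout groups; the plot of counts by list sets them side by side. Among all 13364 such genes 8.11% were higher and 9.18% lower. Members well above background on both arrays of only 1 knockout group stand outside these counts, because they had to differ to be kept. They are given a lower bound or, where 1 of the other group's 2 arrays measured them, their array values. A call named for such a member met the same filter and is no support for a change. Where groups are said not to overlap, this describes 2 arrays against 2, often for genes named for a large change. The share over all genes was not set beside it, so it is no test. With normexp background correction the counts were smaller in these lists: 44 of 50 interferon-stimulated genes, 12 of 26 maturation genes, 8 of 27 NF-kB genes, 1 of 21 class I genes, 1 of 25 redox genes and 0 of 24 LPS receptor genes were higher by limma, and 12 of 39 cell cycle genes lower. On slide 2 alone 37 interferon-stimulated, 4 maturation, 3 NF-kB and 1 class I genes were higher, and 5 cell cycle genes were lower and 1 higher.

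**Figure D1:**
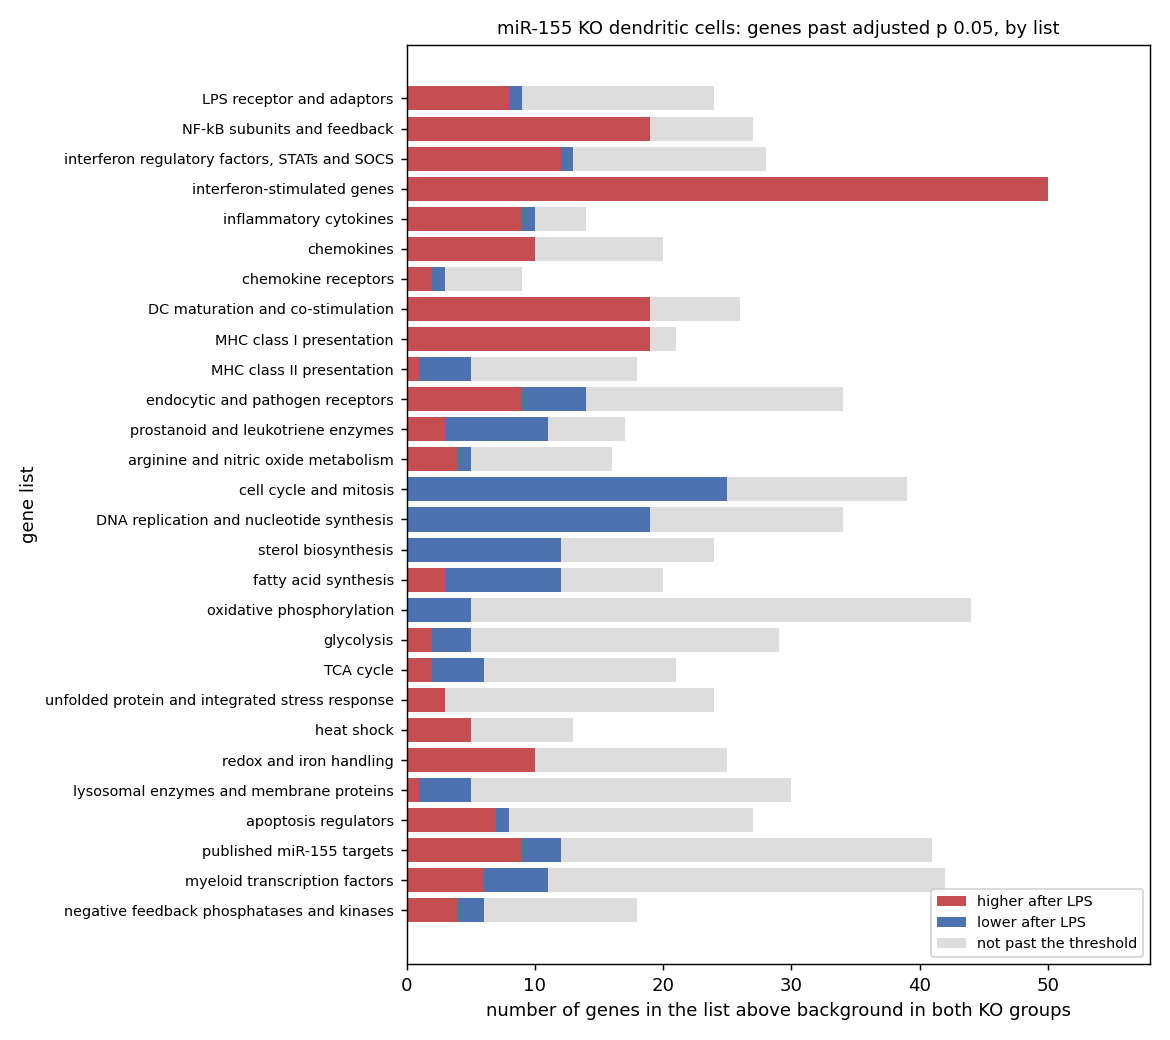
Number of genes per list (x axis) that were higher, lower or not past an adjusted p of 0.05 after LPS in miR-155 knockout dendritic cells, for genes above background in both knockout groups. All 50 interferon-stimulated genes were higher, and all 25 cell cycle genes past the threshold were lower.

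The largest rises among genes measured on all 4 knockout arrays included interleukin 6, interferon-stimulated genes and chemokines. Il6 read 8.50 and 8.37 with LPS against -4.79 and -4.68 without, a log2 change of 13.17 ± 0.25 (SE; limma adjusted p = 4.49e-06). Ms4a4c, a tetraspan membrane protein gene, read 6.45 and 5.69 against -4.52 and -2.83. Ifi44, an interferon-induced gene, read 4.69 and 3.70 against -4.82 and -4.81. For these genes both LPS arrays lay far above both unstimulated arrays. Hdc, which makes histamine, rose by 8.87 ± 1.59 (limma adjusted p = 0.0101), but its LPS arrays stood apart from each other at 6.82 and 2.50, and the call was lost without either unstimulated replicate. Apol7c (8.97 ± 1.61) and Gm8221 (8.82 ± 1.88) also had LPS arrays that differed, at 5.84 and 8.77 and at 2.98 and 7.00. The call for Apol7c was lost without either unstimulated replicate, and that for Gm8221 without either unstimulated replicate or without LPS replicate 2.

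Among genes not well above background on both unstimulated arrays, only a lower bound of the rise can be given: the mean of the LPS arrays against the higher of each unstimulated array's detection limit and its own reading. Il12b, the shared p40 chain of interleukins 12 and 23, was at least 4740-fold higher. Lcn2, an iron-siderophore binding protein, was at least 2490-fold higher and Cxcl5, a neutrophil chemoattractant, at least 839-fold. Lad1, an anchoring filament gene, read 2.65 and 4.45 with LPS and was at least 489-fold higher. U90926 (at least 662-fold) and the transcript NP064182 (at least 585-fold) are named on the array without a function.

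The largest falls among genes measured on all 4 arrays included uptake receptors, monocyte receptors, lipid mediator enzymes and the cell cycle factor E2f2 (log2 -6.65). Asgr2, an asialoglycoprotein receptor chain, read -1.23 and -0.66 with LPS against 6.45 and 6.04 without, a log2 change of -7.19 ± 0.46 (limma adjusted p = 0.000267). Ccr2, the chemokine receptor of inflammatory monocytes, read -1.18 and -1.79 against 5.26 and 4.86. Chn2, a Rac GTPase activating protein, read -3.02 and -3.42 against 2.84 and 2.42, Matk, a kinase that restrains Src kinases, -2.61 and -3.85 against 2.28 and 2.47, and Cd93, a complement C1q-related receptor, -0.99 and -1.04 against 3.99 and 5.10. None of these groups overlapped, but the genes were picked for their large changes, so this adds no support. Among genes not well above background with LPS, Il1rl1, the interleukin 33 receptor, was at least 103-fold lower. Cyp2s1, a cytochrome P450, was at least 55.4-fold lower, and Fam117a at least 37.5-fold lower.

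**Figure D2:**
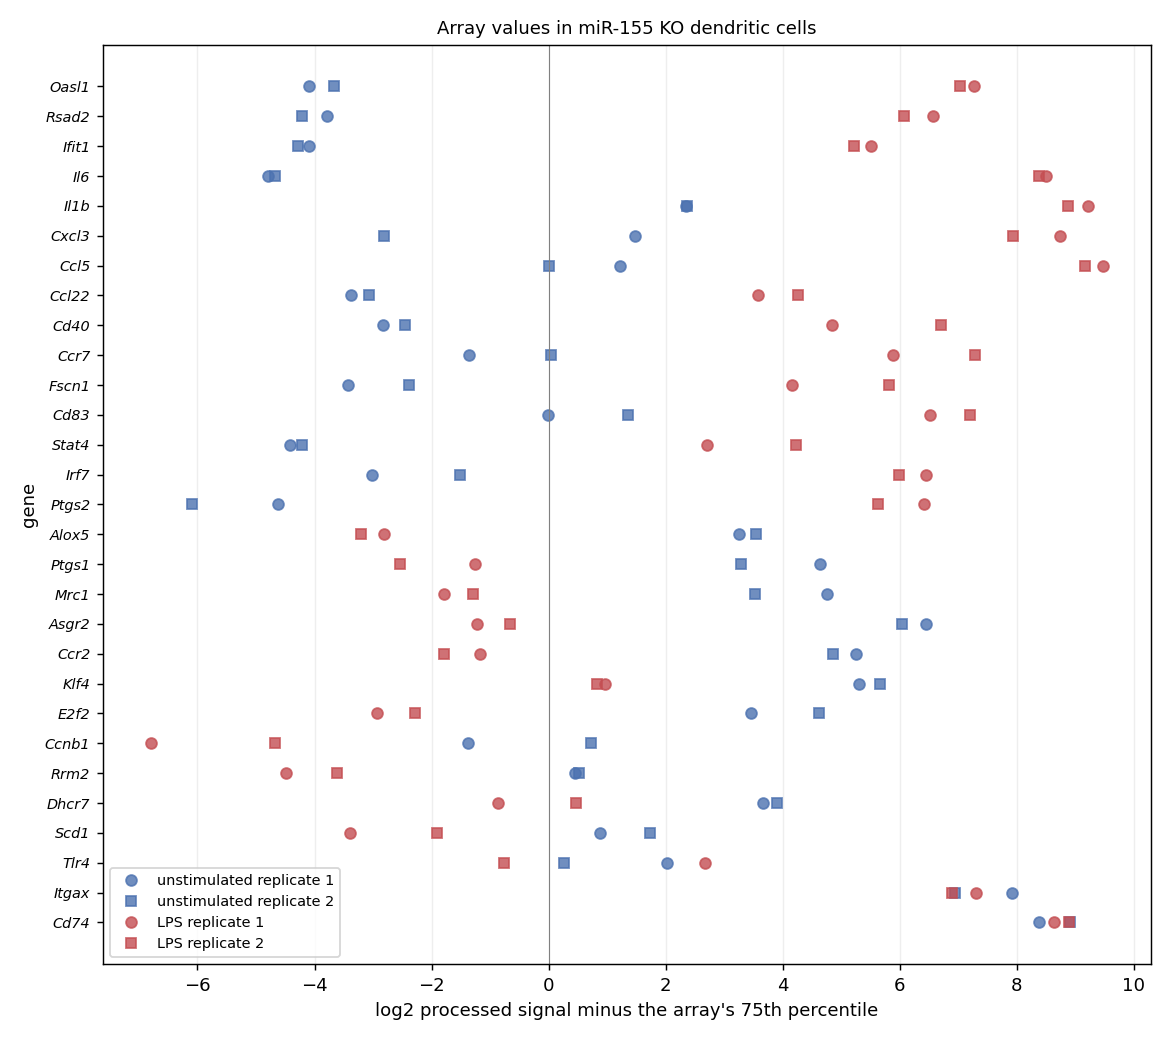
Value of each of the 4 knockout arrays (x axis, log2 processed signal minus the array's 75th percentile) for 29 genes (y axis); red marks are LPS, blue unstimulated, circles replicate 1 and squares replicate 2. The groups separate for every gene shown except Tlr4, Itgax and Cd74; Ptgs2 was well above background on 1 of 2 unstimulated arrays and Rrm2 on 1 of 2 LPS arrays.

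Mrpl39, a protein of the mitochondrial ribosome, was the gene measured on every array of the study whose LPS response differed between knockout and WT cells. It read -2.58 and -2.43 in knockout cells with LPS, 2.39 and 2.01 in knockout cells without, 1.89 and 2.49 in WT cells with LPS and 2.45 and 2.03 in WT cells without. The 2 LPS-treated knockout arrays were thus low and the other 6 arrays lay within 1.89 to 2.49. The log2 change was -4.71 ± 0.32 in knockout cells (limma adjusted p = 0.000323) and -0.05 ± 0.32 in WT cells (adjusted p = 0.929), and the difference between them -4.66 ± 0.45 (adjusted p = 0.0441). The test of that difference was close to the threshold: its adjusted p was 0.157 with slide as a block, and between 0.0830 and 0.285 with any 1 of the 8 arrays left out, while the difference itself stayed between -4.96 and -4.36. The gene had 1 probe, placed by the scanner file on mm9 at chr16:84718622-84724086, minus strand, a span of 5465 bases. It is shown because the result rests on this oligonucleotide alone.
Mrpl39 probe: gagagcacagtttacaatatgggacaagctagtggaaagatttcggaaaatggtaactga

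In RefSeq's gene order on chromosome 16, Mrpl39 is the first protein-coding gene after Mir155, the gene of the missing microRNA. Of the 16 nearest protein-coding genes, 8 on each side of Mir155, 9 were tested. Jam2, the next gene after Mrpl39 and a junctional adhesion molecule, read 0.49 and -0.70 in knockout cells with LPS and -5.37 and -6.47 without, where it was not well above background on every array, so no size is given. Usp25, a deubiquitinating enzyme, rose by 1.91 ± 0.31 in knockout cells (limma adjusted p = 0.00702) and Btg3, an antiproliferative gene, by 1.55 ± 0.30 (adjusted p = 0.0135, lost without LPS replicate 1 or unstimulated replicate 2). Atp5j, a subunit of the mitochondrial ATP synthase, changed by -0.27 ± 0.29, Gabpa, an ETS factor, by 0.84 ± 0.38 and App, the amyloid precursor gene, by 0.51 ± 0.23, all without passing the test, as did Nrip1, a nuclear receptor co-repressor, by 0.63 ± 0.25. D16Ertd472e changed by 1.70 ± 0.45 (adjusted p = 0.0390), a call lost without any 1 of the knockout arrays. For the 7 tested neighbours other than Mrpl39 and Jam2 the adjusted p of the difference between genotypes was 1.0.

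**Figure D3:**
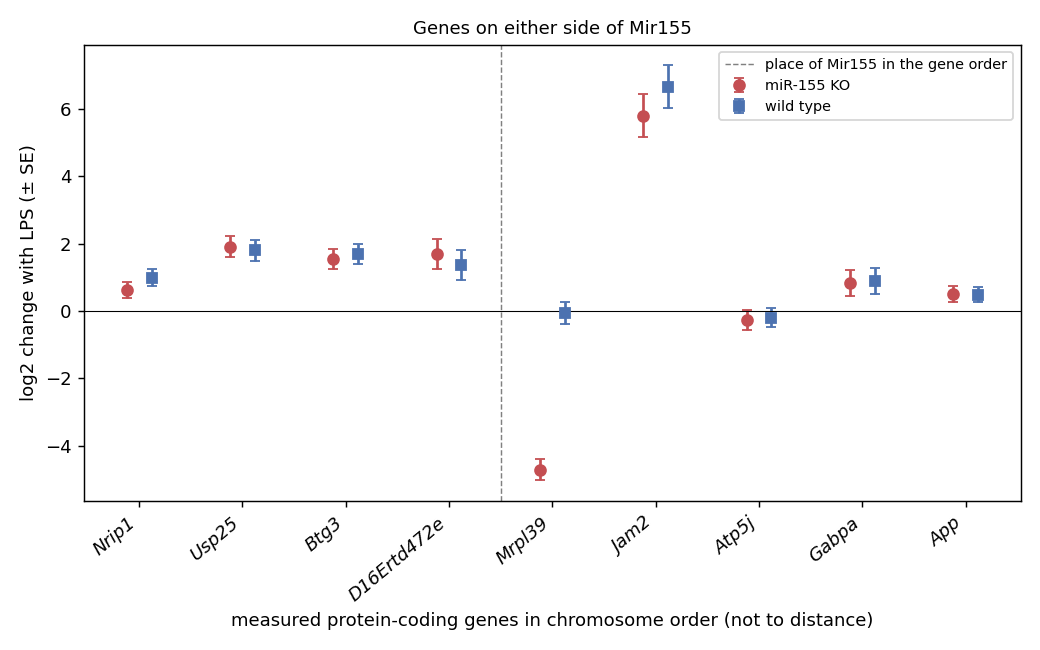
Log2 change with LPS ± SE (y axis) in knockout (red) and wild-type (blue) cells for the 9 tested protein-coding genes around Mir155, in chromosome order and not to distance. Mrpl39 changed by -4.71 in knockout and -0.05 in wild-type cells, while the other genes had similar values in both; Jam2, not well above background on all unstimulated arrays, is plotted as fitted.

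The other 6 genes with a different response were dim in knockout cells. Hmx2, a homeobox gene, read -4.56 and -4.15 in knockout cells with LPS, and was below background without LPS. In WT cells it read -7.16 and -7.14 with LPS, below background. Without LPS it read -4.21 and -4.77 in WT cells, where 1 of 2 arrays was well above background. Spag17, AK034179, AK082037, AK089089 and NAP100574-001 were not above background on any knockout array, so their difference (for Spag17 log2 5.66 ± 0.48, limma adjusted p = 0.0414) is one of WT cells. In all, 7 of 15401 genes (0.0455%) passed the test of the difference. Without adjustment, 219 genes had a limma p under 0.05 in it, a smaller share than the 0.05 expected where no gene differs.

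Of the 24 receptor and adaptor genes, 8 were higher and 1 lower, with a median change of 0.51. Tlr4, the signalling receptor, read 2.68 and -0.76 with LPS and 2.02 and 0.26 without, with groups that overlapped and a change of -0.18 ± 1.53. Cd14, the LPS co-receptor, read 8.10 and 7.95 against 4.69 and 5.87, a rise of 2.74 ± 0.58 (limma adjusted p = 0.0185) whose call was lost without LPS replicate 1, LPS replicate 2 or unstimulated replicate 1. Irak3, an inhibitory kinase-like protein of this pathway, read 3.99 and 4.06 against 1.30 and 1.90 and rose by 2.42 ± 0.30 (adjusted p = 0.00261). Myd88, the main adaptor, changed by 0.52 ± 0.33 (adjusted p = 0.325). Without 1 of the 4 knockout arrays in turn, 2 to 4 of the 24 genes were higher, the fewest without LPS replicate 1.

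NF-kB subunits, inhibitors and feedback genes rose together: 19 of 27 were higher and none lower, with a median of 2.06. Nfkbiz, a nuclear co-activator of secondary response genes, read 3.09 and 3.44 with LPS against -1.07 and -1.11 without, a change of 4.35 ± 0.66 (limma adjusted p = 0.00534). Tnfaip3 (A20), which removes ubiquitin chains from signalling complexes, read 5.66 and 6.25 against 2.47 and 1.94. Nfkb2, the p100 precursor, read 5.52 and 5.90 against 2.21 and 2.81, and Nfkbia, the inhibitor IkB alpha, 7.87 and 8.22 against 6.06 and 5.58. No group overlapped for these genes. Traf1, a signalling adaptor, rose by 4.18 ± 0.41 and Zc3h12a, an RNase that degrades cytokine messages, by 2.61. Rela, the p65 subunit, did not pass (0.82), nor did Zfp36 (-0.15), which destabilises cytokine messages. Rel, the c-Rel subunit, was below background without LPS and at least 3.64-fold higher with it, a call lost without unstimulated replicate 2. Between 12 and 17 of the 27 were higher without 1 knockout array, the fewest without unstimulated replicate 2.

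Promoter windows of these genes were read in RefSeq's GRCm38.p6, 250 bases before to 50 after the start, on both strands. The NF-kB pattern GGANTTNCC was present in 9 of 24 windows of the NF-kB list (37.5%), in 4 of 16 chemokine windows (25.0%) and in 4 of 17 cytokine windows (23.5%). In the cell cycle list, which fell, the pattern was in 5 of 39 windows (12.8%). It was present in 3.96% of the 10235 windows of tested genes and 3.91% of all 27025 windows. The windows of 3 genes that rose are shown as stretches of 90 bases, with matches in capitals; Il6 and Cxcl3 were among the largest rises. A match describes the sequence and was not tested as a binding site.
Nfkbia, chr12:55492777-55492866, minus strand: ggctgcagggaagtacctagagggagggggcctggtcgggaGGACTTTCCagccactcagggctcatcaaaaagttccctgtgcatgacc
Il6, chr5:30013030-30013119, plus strand: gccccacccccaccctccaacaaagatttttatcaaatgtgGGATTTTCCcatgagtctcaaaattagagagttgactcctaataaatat
Cxcl3, chr5:90785988-90786077, plus strand: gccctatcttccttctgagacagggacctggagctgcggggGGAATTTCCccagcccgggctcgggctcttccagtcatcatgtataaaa

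Among interferon regulatory factors, STATs and SOCS genes, 12 of 28 were higher and 1 lower. Irf7, which amplifies type I interferon, read 6.45 and 5.99 with LPS against -3.02 and -1.51 without, a change of 8.49 ± 0.61 (limma adjusted p = 0.000392). Stat4, the signal transducer of interleukin 12, read 2.70 and 4.23 against -4.42 and -4.21 and rose by 7.78 ± 0.78 (adjusted p = 0.00118). Stat2, which carries the type I interferon signal, rose by 3.12 ± 0.31. Irf3, which acts directly downstream of TRIF, and Irf5 read changes of 0.18 and -0.02 that did not pass. Ifngr1, an interferon gamma receptor chain, was the member called lower (-1.74 ± 0.45, adjusted p = 0.0371), a call lost without any 1 of the knockout arrays or of the LPS arrays of WT cells. Ifnb1, the interferon beta gene, was below background without LPS, read -2.64 and 0.72 with it, and was at least 21.5-fold higher.

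All 50 interferon-stimulated genes above background in both knockout groups were higher, with a median of 4.78; the other 2 measured members, Slfn4 and Oas1g, were at least 470-fold and at least 10.3-fold higher. Isg15, a ubiquitin-like modifier, read 7.24 and 7.66 with LPS against -0.23 and 0.05 without, a rise of 7.54 ± 0.37 (limma adjusted p = 0.000133). Rtp4, a regulator of antiviral helicases, read 6.92 and 6.75 against 0.06 and 0.45, and Iigp1, an immunity-related GTPase, 4.19 and 2.90 against -2.64 and -4.33. Each pair of LPS arrays lay above each pair of unstimulated arrays. Oas2, an RNA sensor, rose by 6.40 ± 0.62 and Mx1, an antiviral GTPase, by 4.68 ± 0.64. The smallest changes were in Trim25 (1.58 ± 0.37, adjusted p = 0.0267), a ubiquitin ligase of RNA sensing, and Samd9l (1.71 ± 0.32). Trim25 lost its call without LPS replicate 1 or unstimulated replicate 1, Samd9l without LPS replicate 1 or unstimulated replicate 2. With 1 knockout array left out, 46 to 50 of the 50 passed. The WT median over the measured members was 4.23 beside 4.78 in knockout cells, and no member passed the test of the difference; the nearest named here, Rtp4, rose by 6.57 in knockout and 4.06 in WT cells (adjusted p of the difference 0.181).

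The core of the interferon-stimulated response element, GAAANNGAA, was present in 26 of 39 windows of the interferon-stimulated genes (66.7%), in 5 of 18 windows of the class I list (27.8%) in 21 of the 100 largest rises (21.0%) and in 10 of the 100 largest falls. Among windows of all tested genes it was present in 7.50%, and among all windows in 8.57%. Shown are 4 genes of the list or of its chemokine partners, with matches in either orientation in capitals.
Isg15, chr4:156200848-156200937, minus strand: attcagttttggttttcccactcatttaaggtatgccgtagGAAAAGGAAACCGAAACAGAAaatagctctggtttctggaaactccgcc
Ifit1, chr19:34640739-34640828, plus strand: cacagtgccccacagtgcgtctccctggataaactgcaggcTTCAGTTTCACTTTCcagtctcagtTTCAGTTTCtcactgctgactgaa
Rsad2, chr12:26456523-26456612, minus strand: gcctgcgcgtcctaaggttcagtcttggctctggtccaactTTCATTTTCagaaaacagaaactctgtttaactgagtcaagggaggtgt
Cxcl10, chr5:92349050-92349139, minus strand: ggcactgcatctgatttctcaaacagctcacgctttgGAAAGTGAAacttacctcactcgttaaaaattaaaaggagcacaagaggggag
In Isg15 and Ifit1 the capitals cover overlapping matches. Ifit1, an RNA-binding antiviral protein, rose by 9.56 ± 0.25 and Rsad2 (viperin) by 10.32 ± 0.33, while Cxcl10, a ligand of Cxcr3, read 7.72 and 5.99 against -0.87 and -2.27.

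**Figure D4:**
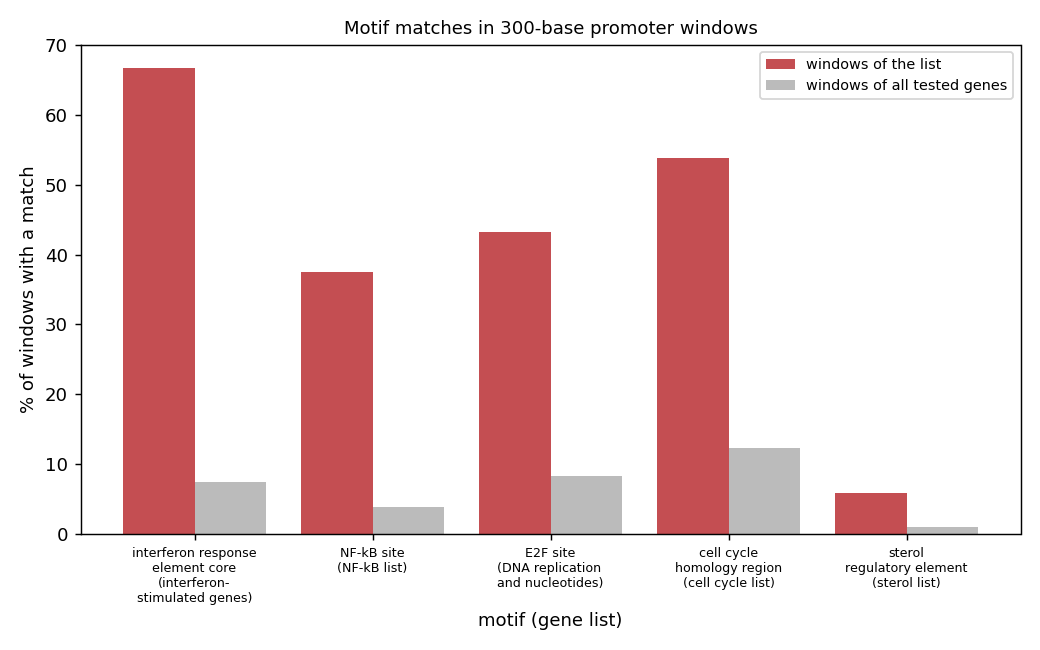
Percent of 300-base promoter windows (y axis) that hold a motif on either strand, for windows of a gene list (red) and of all tested genes (grey). The response element core was in 66.7% of interferon-stimulated windows against 7.50% of all tested windows, and the NF-kB pattern in 37.5% against 3.96%.

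Inflammatory cytokines rose, led by the interleukin 1, 6 and 12 families. Of 14 cytokine genes above background in both groups, 9 were higher and 1 lower. A further 10 were kept through the LPS arrays alone. Il1a read 6.07 and 5.63 with LPS against -0.90 and -3.33 without, a rise of 7.97 ± 0.94 (limma adjusted p = 0.00210). Il1rn, the interleukin 1 receptor antagonist, read 6.96 and 6.82 against 3.55 and 2.92, and Ebi3, a chain of interleukins 27 and 35, 6.85 and 7.68 against 4.16 and 4.74. Groups did not overlap for these genes. Csf3, the granulocyte growth factor, was at least 54.2-fold higher, Tnfsf15 at least 80.4-fold and Il33, an alarmin, at least 9.55-fold. Il23a, the p19 chain of interleukin 23, was at least 4.99-fold higher. Il10, the regulatory cytokine, read -3.99 and -0.69 with LPS and was below background without; it did not pass (adjusted p = 0.0607). Ltb, lymphotoxin beta, was lower (-3.01 ± 0.51, adjusted p = 0.00851), a call lost without unstimulated replicate 2.

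Of 20 chemokine genes above background in both groups, 10 were higher and none lower, with a median of 3.46. Ccl22, which attracts Ccr4-bearing T cells, read 3.58 and 4.26 with LPS against -3.38 and -3.07 without, a rise of 7.15 ± 0.31 (limma adjusted p = 8.77e-05). Ccl5 read 9.47 and 9.17 against 1.22 and 0.00. The neutrophil attractants Cxcl1 and Cxcl2 rose by 5.30 ± 0.77 and 4.68 ± 0.77, and Cxcl9, a Cxcr3 ligand induced by interferon, was at least 186-fold higher. Monocyte attractants varied between replicates instead: Ccl2 read 8.03 and 4.14 with LPS and 4.24 and 0.67 without, and Ccl7 3.78 and -0.30 against -1.08 and -4.08. In both genes replicate 1 was the higher in each group, and neither passed (Ccl2 3.63 ± 1.96, limma adjusted p = 0.244). With the replicate number as a block, 15 of the 20 chemokines were higher.

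Of 9 chemokine receptors above background in both groups, 2 were higher and 1 lower. Ccr7, the receptor for lymph node homing, read 5.88 and 7.29 with LPS against -1.36 and 0.04 without, a rise of 7.24 ± 0.92 (limma adjusted p = 0.00275). Cxcr5, the follicular receptor, was at least 12.3-fold higher and Ccr4 at least 17.2-fold higher. Ccr2 was the member called lower (-6.55 ± 0.48). Cx3cr1, the fractalkine receptor, was outside the count with 1 of 2 LPS arrays well above background; it read -7.17 and -3.12 against -3.98 and -0.84 and did not pass.

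Maturation and co-stimulation genes rose: 19 of 26 were higher and none lower, with a median of 2.50. Cd40, the receptor for T cell help, read 4.84 and 6.71 with LPS against -2.83 and -2.45 without, a rise of 8.42 ± 0.74 (limma adjusted p = 0.000747). Fscn1 (fascin), which bundles actin in mature dendritic cells, read 4.15 and 5.81 against -3.42 and -2.39, Cd83 6.51 and 7.20 against -0.01 and 1.35, and Cd200, an inhibitory ligand, 4.55 and 5.15 against -1.41 and -1.86. LPS and unstimulated arrays were apart for each. Cd80, a B7 co-stimulatory ligand, rose by 2.68 ± 0.28 and Cd274 (PD-L1), which restrains T cells, by 3.24 ± 0.48. Slamf1 was at least 60.6-fold higher. Havcr2 (TIM-3) read -1.40 and -2.68 against -0.92 and 0.34 and did not pass. Without 1 knockout array, 15 to 17 of the 26 were higher.

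Genes of the 2 antigen presentation routes differed in their counts. Of 21 class I genes 19 were higher and none lower, with a median of 1.73, and 9 to 15 passed when a knockout array was left out, the fewest without LPS replicate 2; 1 passed with normexp and 1 on slide 2 alone. Tap1, a subunit of the peptide transporter, read 4.05 and 3.98 with LPS against 0.97 and 1.39 without (2.84 ± 0.30, limma adjusted p = 0.00133). Nlrc5, the class I transactivator, rose by 2.69 ± 0.33 and H2-T22, a non-classical heavy chain, by 3.23 ± 0.37. Of 18 class II genes 1 was higher and 4 lower, with a median of -0.30 that lay between -1.05 and 0.12 over all the processing alternatives. H2-DMa, which loads peptide onto class II, read 3.56 and 3.63 against 6.23 and 6.38, a fall with groups apart (-2.71 ± 0.24, adjusted p = 0.000800). H2-Ab1, a class II chain, read 8.96 and 8.96 against 8.52 and 8.80 and did not pass (0.30 ± 0.37), nor did Ciita, the class II transactivator (-1.22 ± 0.91).

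Uptake and pathogen receptors changed in both directions. Of 34 above background in both groups, 9 were higher and 5 lower. Among 6 kept through the unstimulated arrays alone were Cd207 (langerin), at least 34.0-fold lower, and Clec9a, a receptor for dead cells, at least 5.61-fold lower. Mrc1, the mannose receptor, read -1.79 and -1.29 with LPS against 4.75 and 3.52 without, a fall of -5.68 ± 0.51 (limma adjusted p = 0.000827). Clec10a, a galactose-type lectin, read -0.96 and -3.39 against 4.25 and 3.89. Cd209d, a DC-SIGN relative well above background on 1 of 2 LPS arrays and so outside the count, read -4.86 and -6.62 against -0.06 and 0.14. Receptors for bacterial lipids and particles were among those that rose. Marco, a scavenger receptor, read 9.10 and 9.43 against 2.81 and 1.98 (6.86 ± 0.70, adjusted p = 0.00125). Clec4e (Mincle), which binds mycobacterial glycolipid, read 7.94 and 7.84 against 3.18 and 3.29. Tlr1, which pairs with Tlr2, rose by 4.13 ± 0.38, Fpr1, a formyl peptide receptor, by 4.01 ± 0.39 and Ly75 (DEC-205) by 3.42 ± 0.38. Tlr2 and Tlr9 read changes of 0.34 and 0.03 that did not pass.

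Of 17 lipid mediator enzymes above background in both groups, 3 were higher and 8 lower. Ptgs2 (cyclooxygenase 2) read 6.42 and 5.63 with LPS against -4.63 and -6.09 without, where 1 of the 2 arrays was well above background. Ptges, which makes prostaglandin E2 from its product, read 4.07 and 2.87 against -2.82 and -2.91. Ptgs1 (cyclooxygenase 1) read -1.26 and -2.54 against 4.64 and 3.29. For these genes no LPS array lay among the unstimulated ones. Alox5, which starts leukotriene synthesis, read -2.82 and -3.21 against 3.25 and 3.54 (-6.41 ± 0.35, limma adjusted p = 0.000155). Its partner Alox5ap changed by -3.24 ± 0.41 and Lta4h, which makes leukotriene B4, by -2.60 ± 0.44. Alox12, which was below background without LPS, was at least 6.03-fold higher. Without unstimulated replicate 2, 5 genes were lower and 1 higher.

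Of 16 genes of arginine and nitric oxide metabolism above background in both groups, 4 were higher and 1 lower, and 2 to 4 were higher with 1 knockout array left out, the fewest without unstimulated replicate 1. Nos2, inducible nitric oxide synthase, read -0.43 and -0.67 with LPS, was below background without, and was at least 28.5-fold higher. Slc7a2, an arginine transporter, read 5.35 and 4.79 against -0.09 and -1.45 (5.84 ± 0.78). Gch1, the first enzyme of the cofactor tetrahydrobiopterin, rose by 2.65 ± 0.26 (limma adjusted p = 0.00107). Ass1, which regenerates arginine from citrulline, did not pass (0.55 ± 0.27). Arg1, the cytosolic arginase, varied between replicates, at 0.11 and -4.13 with LPS and -2.97 and -6.96 without, where 1 of the 2 arrays was well above background, and did not pass. Arg2, the mitochondrial arginase and a published miR-155 target, read 3.71 and 2.79 against -3.46 and -0.40; it rose by 5.17 ± 1.18 (adjusted p = 0.0238), a call lost without LPS replicate 1, LPS replicate 2 or unstimulated replicate 1. WT cells changed by 2.12, and the difference did not pass (adjusted p = 1.0).

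Cell cycle genes fell. Of 39 above background in both groups, 25 were lower and none higher, with a median of -2.85. Another 10 were kept through the unstimulated arrays alone. E2f2, a cell cycle transcription factor, read -2.93 and -2.29 with LPS against 3.45 and 4.62 without, a change of -6.65 ± 0.48 (limma adjusted p = 0.000382). Plk1, a mitotic kinase, read -2.76 and -1.68 against 1.56 and 3.56. Ccna2 (cyclin A2), outside the count because 1 of 2 LPS arrays was well above background, read -4.75 and -3.10 against 1.1 and 2.37. The LPS arrays were the lower ones for each. Birc5 (survivin) changed by -4.59 ± 0.59, Aurkb, a kinase of chromosome segregation, by -3.92 ± 0.36 and Foxm1, a transcription factor of mitotic genes, by -3.94 ± 0.49. Cenpf, a kinetochore protein, was at least 26.4-fold lower. Mki67, a proliferation marker, did not follow: it read 3.89 and 3.88 with LPS and 3.04 and 3.31 without (0.71 ± 0.48, adjusted p = 0.349). Ccnd2 (cyclin D2) read 6.69 and 6.92 against 3.66 and 0.84 and missed the threshold (4.56 ± 1.33, adjusted p = 0.0526). With 1 knockout array left out, 19 to 24 genes were lower.

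DNA replication genes were lower in 19 of 34 and higher in none, with a median of -2.04. Tk1, thymidine kinase, read -2.78 and -2.08 with LPS against 1.31 and 2.32 without (-4.25 ± 0.56, limma adjusted p = 0.00319). Rrm2, a ribonucleotide reductase subunit outside this count, was well above background on 1 of 2 LPS arrays, at -4.49 and -3.62 against 0.45 and 0.52, and lost its call without unstimulated replicate 2. The helicase subunits Mcm5 (-2.19 ± 0.67, adjusted p = 0.0601) and Mcm6 (-1.39 ± 0.66) did not pass. The count rested on single arrays, with 2 to 7 genes lower when a knockout array was left out and the fewest without unstimulated replicate 2.

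TTTGAA, the core of the cell cycle homology region found in promoters of mitotic genes, was in 21 of 39 cell cycle windows (53.8%), in 31 of the 100 largest falls (31.0%), in 24 of the 100 largest rises (24.0%), in 14 of 39 interferon-stimulated windows (35.9%) and in 12.4% of windows of tested genes. The E2F pattern TTTNNCGC was in 13 of 30 DNA replication windows (43.3%) against 8.33% of windows of tested genes. It was also in 4 of 18 windows of the class I list (22.2%), which rose, and in 8.42% of windows of genes called lower. Each search covered both strands, and over all windows the shares were 18.1% and 5.27%. Cdc20 and Plk1 carry the first pattern and E2f2 the second.
Cdc20, chr4:118437314-118437403, minus strand: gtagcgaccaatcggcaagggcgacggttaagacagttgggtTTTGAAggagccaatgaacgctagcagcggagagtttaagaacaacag
Plk1, chr7:122159395-122159484, plus strand: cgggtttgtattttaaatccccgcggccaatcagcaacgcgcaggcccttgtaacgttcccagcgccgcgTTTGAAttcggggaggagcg
E2f2, chr4:136172234-136172323, plus strand: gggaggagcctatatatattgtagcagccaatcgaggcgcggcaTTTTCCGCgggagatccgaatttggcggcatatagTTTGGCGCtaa
Cdc20, which activates the anaphase-promoting complex, changed by -4.73 ± 0.77 (limma adjusted p = 0.00715).

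Of 24 sterol genes 12 were lower and none higher, with a median of -1.74. Dhcr7, the last enzyme of cholesterol synthesis, read -0.86 and 0.46 with LPS against 3.67 and 3.91 without (-3.99 ± 0.56, limma adjusted p = 0.00400). Mvd, a mevalonate enzyme, changed by -2.11 ± 0.28. The sterol count lay between 5 and 13 without 1 knockout array, lowest without unstimulated replicate 2. Of 20 fatty acid genes 9 were lower and 3 higher. Scd2, a fatty acid desaturase, read 0.99 and 1.19 against 5.62 and 5.55 (-4.50 ± 0.28, adjusted p = 0.000247), and Elovl6, an elongase, changed by -4.46 ± 0.41. Dgat2, which makes triglyceride, read 4.21 and 4.33 against -1.35 and -0.92, and Acsl1, which activates fatty acids, rose by 4.55 ± 0.38. The sterol regulatory element TCACNCCAC was in 1 of 17 sterol windows (5.88%) and 1.09% of windows of tested genes (1.22% of all windows), on both strands.

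Irg1, which makes itaconate from a citric acid cycle intermediate, read 9.14 and 8.78 with LPS against 2.61 and 0.83 without, a rise of 7.24 ± 0.68 (limma adjusted p = 0.000949). Idh2, mitochondrial isocitrate dehydrogenase, read -0.14 and -0.71 against 2.0 and 1.57 (-2.21 ± 0.35, adjusted p = 0.00631). Of 21 citric acid cycle genes 4 were lower and 2 higher, of 29 glycolysis genes 3 lower and 2 higher, and of 44 respiratory chain genes 5 lower and none higher. Ldhb, a lactate dehydrogenase chain, changed by -3.31 ± 0.48 and Aldoc, an aldolase, by -2.63 ± 0.35. Ndufb5, a complex I subunit, changed by -1.76 ± 0.25, and the respiratory list had a median of -0.47. These shares lie near those over all genes above background in both groups for glycolysis (10.3% lower, 6.90% higher) and the respiratory chain (11.4% lower). Without 1 knockout array 1 respiratory gene was lower in each fit, 1 to 2 citric acid cycle genes were lower and 1 higher, and 0 to 2 glycolysis genes were higher by limma; none of the latter passed without LPS replicate 2 or either unstimulated replicate.

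Redox and iron genes rose in 10 of 25, with none lower. Hmox1, heme oxygenase, read 6.69 and 7.23 with LPS against 4.58 and 4.61 without (2.36 ± 0.36, limma adjusted p = 0.00541). Slc7a11, the cystine transporter, rose by 3.10 ± 0.45, Sod2, mitochondrial superoxide dismutase, by 3.52 ± 0.40 and Slc11a1, a phagosomal metal transporter, by 1.95 ± 0.27. Of 13 heat shock genes 5 were higher, among them Hspa1a (3.83 ± 0.63, adjusted p = 0.00738). Of 24 unfolded protein response genes 3 were higher (12.5%), near the share of 8.11% over all genes above background in both groups. These counts fell to between 4 and 9, 1 and 4, and 0 and 1 when a knockout array was left out; the fewest redox and unfolded protein genes remained without unstimulated replicate 2, and the fewest heat shock genes without LPS replicate 2.

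Among 27 apoptosis genes 7 were higher and 1 lower. Casp4, the sensor caspase for cytosolic LPS (known as caspase 11 in mice), read 6.08 and 6.13 with LPS against 1.98 and 2.02 without, a rise of 4.10 ± 0.32 (limma adjusted p = 0.000478). Casp1, the inflammasome caspase, rose by 2.09 ± 0.27, Mlkl, the effector of necroptosis, by 2.52 ± 0.39 and Gadd45b, a stress kinase regulator, by 5.77 ± 0.61. Mcl1 and Bax read changes of 0.04 and -0.35 that did not pass. Of 30 lysosomal genes 1 was higher (3.33%) and 4 lower (13.3%), near the shares of 8.11% and 9.18% over all genes above background in both groups. The calls for lower genes rested on single knockout arrays of either group.

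Of 42 myeloid transcription factors above background in both groups 6 were higher (14.3%) and 5 lower (11.9%), near the shares of 8.11% and 9.18% over all such genes. Klf4, a monocyte factor, read 0.96 and 0.83 with LPS against 5.31 and 5.67 without (-4.60 ± 0.28, limma adjusted p = 0.000247), and Pparg, a lipid-sensing nuclear receptor, read -0.77 and -0.56 against 2.87 and 2.73. Batf2, an interferon-responsive factor, read 4.03 and 4.30 against 1.14 and 1.09 (3.05 ± 0.29). Gfi1, a repressor, was at least 78.2-fold higher and Nr4a3, an orphan nuclear receptor, at least 17.8-fold higher. Sfpi1, the array's name for PU.1, read 1.42 and 1.61 against 1.69 and 2.35 and did not pass. Without unstimulated replicate 2, 2 factors were higher and 2 lower. Among feedback phosphatases and kinases 4 of 18 were higher (22.2%) and 2 lower (11.1%); without unstimulated replicate 2, 1 was higher and none lower. The dual-specificity phosphatases Dusp4 and Dusp14, which switch off MAP kinases, were at least 46.6-fold and at least 71.4-fold higher, and Dusp16 rose by 3.38 ± 0.58.

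Published targets of miR-155 were examined because the cells lack it. Of 41 above background in both groups, 9 were higher and 3 lower, where the shares over all such genes were 8.11% and 9.18%. Over the 42 measured members, 9 were higher and 4 lower in knockout cells, and 4 higher and 8 lower in WT cells. Of these 42, 1 was kept through the unstimulated knockout arrays alone. Their median was 0.42 in knockout cells, between -0.23 and 0.43 over the processing alternatives, and 0.14 in WT cells. No member passed the test of the difference between genotypes, and the counts were not tested against each other. Socs1, a feedback inhibitor of cytokine receptors, rose by 3.87 ± 0.68 (lost without unstimulated replicate 2) and Ikbke, a kinase of interferon induction, by 2.27 ± 0.29, with WT changes of 3.99 and 1.93. Tspan14, a tetraspanin, read 3.06 and 3.78 against 4.11 and 4.25 (-0.76 ± 0.40, adjusted p = 0.229), where WT cells changed by -2.0. Bach1, a repressor of heme oxygenase, changed by -0.59 ± 0.35 (adjusted p = 0.283) against -1.64 in WT cells, and Inpp5d (SHIP1), a lipid phosphatase, by -0.80 ± 0.26 (adjusted p = 0.0747) against -1.34. Cebpb, a myeloid transcription factor, rose by 1.23 ± 0.31 (adjusted p = 0.0346), a call lost without LPS replicate 1, LPS replicate 2 or unstimulated replicate 2 of the knockout, or without either unstimulated WT array. The number of higher targets fell to between 2 and 6 without 1 knockout array, lowest without unstimulated replicate 2.

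Markers of other cells in a bone marrow culture moved with LPS too. Of 18 macrophage markers listed, 16 were measured, and their summed linear level was 1299.7 and 1137.8 with LPS against 389.6 and 519.9 without. The sum was led with LPS by Marco. Marco and Cd14, both in the list, rose by log2 6.86 and 2.74, so the sum does not give the number of macrophages. Within that list 3 of the 15 above background in both groups were higher, with Marco among them, and 6 lower, with Mrc1 among them; 1 was lower without unstimulated replicate 2, and 1 higher without unstimulated replicate 1. The summed neutrophil markers read 62.2 and 88.0 against 14.9 and 22.2, led with LPS by Lcn2. Of 16 markers, 7 were absent from the array or not above background on any knockout array. Of the 5 above background in both groups, none was higher or lower by the test. Among those kept through 1 knockout group alone, Lcn2 and Camp were higher and Ltf lower. Mast cell and basophil markers read 113.4 and 6.15 against 1.20 and 2.09, led with LPS by Hdc. Of 14 markers, 6 were not above background on any knockout array. Another 6 were kept through the unstimulated arrays alone, and 4 of these were lower, among them Cd200r3, Cpa3 and Prss34. Of the 2 above background in both groups, Hdc and Kit, both were higher, and neither without unstimulated replicate 2. Stromal markers read 14.025 and 5.27 against 0.938 and 0.393, and the matrix proteins Dcn and Lum were at least 97.3-fold and at least 20.9-fold higher, Dcn losing its call without unstimulated replicate 2. Erythroid markers read 6.59 and 0.946 against 0.393 and 0.277. Monocyte markers read 222.8 and 142.7 against 119.7 and 112.8, T cell markers 12.8 and 13.4 against 5.36 and 4.80, and B cell markers 0.307 and 0.397 against 0.881 and 4.89. Eosinophil markers read 13.2 and 6.73 against 32.3 and 27.4, and NK cell markers 0.039 and 0.17 against 0.342 and 0.437. Plasmacytoid markers read 246.3 and 172.9 against 17.5 and 20.6, led by the interferon-stimulated gene Bst2. Dendritic cell markers read 1236.7 and 1352.0 against 1237.9 and 1322.1, a sum led by H2-Ab1 and Cd74. Of the 14 above background in both groups, 1 was higher (7.14%) and 3 lower (21.4%), among them Ffar2 (-4.89 ± 0.61). Itgae, Cd209a and Clec9a, kept through the unstimulated arrays alone, were also lower. The part of other cells in the gene changes above was not tested.

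Beside the knockout response, WT cells had 1460 genes higher (9.48%) and 1646 lower (10.7%) with LPS. Of the genes higher in knockout cells, 1270 were also called higher in WT cells, which is 79.6% of the knockout calls and 87.0% of the WT calls. Of those lower, 1354 were also called lower in WT cells, 83.9% of the knockout and 82.3% of the WT calls. Opposite calls were made for 6 genes; of these only Hmx2, BM939341 and 4930432K21Rik were well above background on both arrays of a knockout group. A gene called in 1 genotype alone was not thereby shown to differ, since 7 genes passed the test of the difference.

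**Figure D5:**
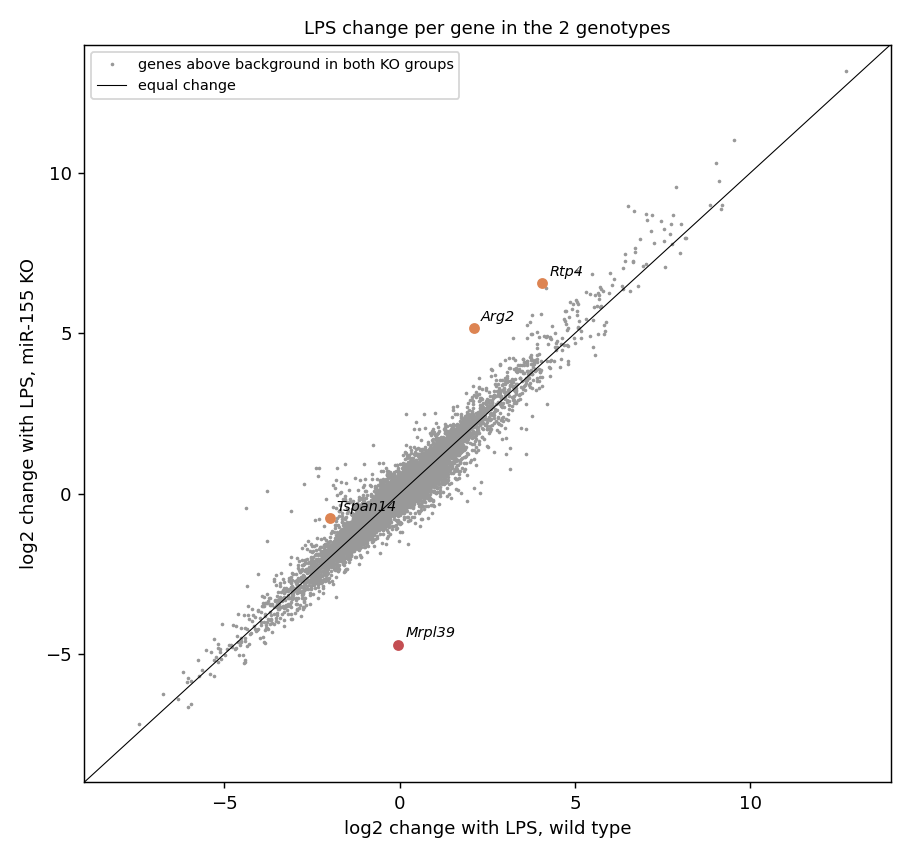
Log2 change with LPS in wild-type cells (x axis) and miR-155 knockout cells (y axis) for the 13364 genes above background in both knockout groups, with the line of equal change. Most genes lie near the line; Mrpl39, at -0.05 and -4.71, stands far below it, and Arg2, Rtp4 and Tspan14 are marked for reference.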

How the data were processed

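Total RNA was labelled with Cy3 and hybridised to 1-colour Agilent arrays, 1 sample per array. Signal intensity was taken by the authors with Agilent Feature Extraction 10.5.1.1, with probe positions on mm9, per the file headers. The deposited processed intensity is background-subtracted, and its log2 was centred here on the 75th percentile of each array. The deposited log2 table of the series served as an alternative. Control spots and outlier spots were left out, which gave 48 genes with a missing value on some array.

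Probes well above background on both arrays of a group (23738 of 41174) gave 15401 genes, of which 5686 had several probes; 1 probe per gene was used, and 8 genes had probes called in opposite directions. Group means of the 8 arrays (2 per group) entered 1 linear model, run in limma 3.58.1 under R 4.3.3 and leaving 4 residual degrees of freedom, and p-values were adjusted by Benjamini-Hochberg over 15401 genes with a threshold of 0.05. The steps were tested on simulated data. The number of arrays limits the precision.

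Named genes are the 12 largest changes in each direction measured on all 4 knockout arrays, the 8 largest lower bounds in each direction, the 4 largest called members of each list, the 12 genes with the smallest p in the difference, and a fixed set; further list members were named after their values were seen. Lists, members and the rule were chosen with earlier results of these data known. The alternatives covered background correction, scaling, probe filter, probe choice, slide, replicate number, variance trend and each array left out. Replicate numbers were not taken as pairs in the main fit, because the sources did not say what same-numbered arrays shared. Their deviations correlated by 0.01 to 0.69 over the 6 pairs of groups. On the second principal component (9.6% of the variance), replicate 1 lay above replicate 2 in every group. A difference between replicates shared by the groups therefore remains in the spread of the main fit. Some genes are not reported here.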

Additional observations from a re-analysis of the deposited data

Results flagged for a closer look

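In the main fit, 7 genes passed limma's test of the difference in LPS response, given here as knockout minus WT on the log2 scale. No gene passed it with normexp background correction, with slide as a block, with the replicate block or with a variance trend. Mrpl39, of the mitochondrial ribosome, had a difference of -4.66 and was the member of the 7 well above background on all 8 arrays. Hmx2, a homeobox gene, had a fitted difference of 5.83 and was well above background on both LPS arrays of the knockout. A WT change of -2.66 is part of that difference. The size rests on readings below background in unstimulated knockout cells and in WT cells with LPS. The remaining differences were 5.75 for AK082037, 5.66 for Spag17, 4.71 for NAP100574-001, 4.17 for AK089089 and 3.63 for AK034179. These 5 were well above background in unstimulated WT cells and on no knockout array.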

How the results depend on the processing

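The count of genes changed by LPS in knockout cells, 3208, was 930 with normexp background correction (27.2% of the original calls shared) and 441 on slide 2 alone, and lay between 1420 and 3106 with 1 array left out. It stayed within 1.5 times of 3208 under the other alternatives. Of 166 named calls, 98 were kept, 60 lost and 8 reversed with normexp; 160 were kept with quantile normalization and 147 with slide as a block. With the replicate number as a block, 4187 genes passed for the knockout response and 166 of 166 named calls were kept. Under that block 15 of 20 chemokines were higher in place of 10. The 7 genes of the difference between genotypes became 14 with quantile normalization. They became 0 by limma with normexp, with no filter on dim probes and over genes above background on all 4 knockout arrays. They also became 0 with slide as a block, with the replicate block and with a variance trend. In these fits 57 to 1009 genes had an unadjusted limma p under 0.05, each a smaller share than 0.05 of the genes tested. With 1 array left out the count lay between 0 and 10. The sign of the change turned with normexp for Cd163 (0.04), Cd2 (0.75), Cpa3 (0.83), Klra8 (0.54), Klrb1c (1.20), Lat (0.98), Ltf (0.99), Steap3 (0.68) and Tlr4 (0.11). With 1 array left out, Tlr4 ranged from -1.90 to 1.54 (0.70 without unstimulated replicate 1) and Itgax from -0.81 to 0.16. The cause was not tested. Of the spots on the knockout arrays, 54.9% to 58.3% were well above background, which limits what the dim genes show.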

Other observations

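With 1 knockout array left out, 2 to 3 of the 18 class II genes above background in both groups were lower with LPS in place of 4. H2-DMb1 read 5.71 and 6.14 with LPS against 7.5 and 7.32 without, a call lost without any 1 of the knockout arrays. H2-DMb2, of the same antigen loading complex, read -0.85 and -0.30 against 1.38 and 1.42 and kept its call without any 1 array. Lgmn, a lysosomal protease that processes antigen, read 3.78 and 4.12 against 5.22 and 5.67, and lost its call without LPS replicate 1 or unstimulated replicate 2. March1, a ubiquitin ligase that removes class II from the surface, read 5.39 and 5.46 against 4.4 and 3.89, and lost its call without either LPS replicate or unstimulated replicate 2.

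Pcx, which refills the citric acid cycle from pyruvate, read 2.01 and 2.57 with LPS against 1.04 and 0.72 without, a call lost without any 1 of the knockout arrays. Ccrl2, an atypical chemokine receptor, read 5.04 and 5.27 against 1.61 and 1.58 and lost its call without unstimulated replicate 2. Pdgfrb, a growth factor receptor of stromal cells, read -0.23 and 0.27 against -4.69 and -3.50.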
